A study of Arabidopsis thaliana with 6 samples.

Results

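The 39 genes described here build, demethylate or break down pectin and were chosen by name, with each row of the count tables taken whose identifier was on a fixed list. They were 39 of 33318 genes counted, and comprised 22 pectin methylesterases, 2 methylesterase inhibitors, 3 pectin synthesis genes, 4 polygalacturonases and 8 pectate lyase-like genes. Transcripts were measured by RNA sequencing of the second internode of plants that carry *pPXY:GR-ARF5∆III/IV* in the Col-0 background. The plants were 15 to 20 cm tall and were harvested 3 h after dipping them in mock solution or in 15 µM dexamethasone (Dex). All plants in both groups carried the transgene, in which the *PXY* promoter, active in cambium stem cells, drives an ARF5 auxin response factor that lacks the domains III and IV bound by AUX/IAA repressors and is fused to a glucocorticoid receptor, so that Dex lets it enter the nucleus. Endogenous ARF5 was present in both groups, and Dex-treated plants without the transgene were not analysed here, so that an effect of Dex itself cannot be told apart from one of ARF5. There were 3 mock and 3 Dex libraries. The methods give 3 plants per replicate while the deposited description speaks of pooled RNA from 3 samples, and whether the libraries came from separately treated plants is not stated, so the p-values measure the spread between these libraries.

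Pectin is the gel-like polysaccharide of the primary cell wall and the middle lamella. Its homogalacturonan backbone is made and methyl-esterified in the Golgi, and pectin methylesterases in the wall then remove the methyl groups, which lets chains bind calcium and stiffen or exposes them to polygalacturonases and pectate lyases that cut the backbone. Methylesterase inhibitors bind and block the methylesterases, and pectin remodelling accompanies the expansion, separation and differentiation of plant cells, including those of the cambium.

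The libraries held 22871927 to 32099136 reads in genes, so that 3 reads, taken as the limit that a count of 0 allows for counting error, correspond to 0.0935 to 0.131 CPM. Levels are given as CPM, the reads of a gene divided by the scaled library total and multiplied by 1e+06, and levels between genes as the authors' RPKM, which is scaled by exon length. Mock replicate 2 stood apart from the other mock libraries. It scored -9.75 on the first principal component, against -50.4 and -50.6 for the other mock libraries and 30.1 to 44.2 for the Dex libraries. The tissue label was borne out by stem markers, since the cambium gene *PXY* was at 240 to 330 CPM and 3 cellulose synthase genes of xylem secondary walls were at 907 to 1760 CPM. The cambium regulator *ATHB8*, a known target of ARF5 in leaf veins, rose 2.14-fold (edgeR, adjusted p = 0.0012). The other cambium genes listed did not pass, *WOX4* with a fold of 0.777 (edgeR, adjusted p = 0.16) and *PXY* with a fold of 0.929 (edgeR, adjusted p = 0.72).

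Levels differed widely within the methylesterase, polygalacturonase and pectate lyase-like classes. Of the 22 pectin methylesterases, 12 had a mean over 10 RPKM and 8 a mean under 1 RPKM. *PMEPCRF* (AT5G53370) at 204 RPKM and *PME3* (AT3G14310) at 193 RPKM together took 43.4% of the summed RPKM of this class. Among the pectate lyase-like genes, AT4G24780 at 237 RPKM was the most abundant of all 39 genes and AT1G04680 stood at 144 RPKM, and the pair took 85.4% of the sum. All 3 synthesis genes were between 33.0 and 82.7 RPKM. In contrast, both inhibitors and 3 of 4 polygalacturonases were under 1 RPKM.

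**Figure D1:**
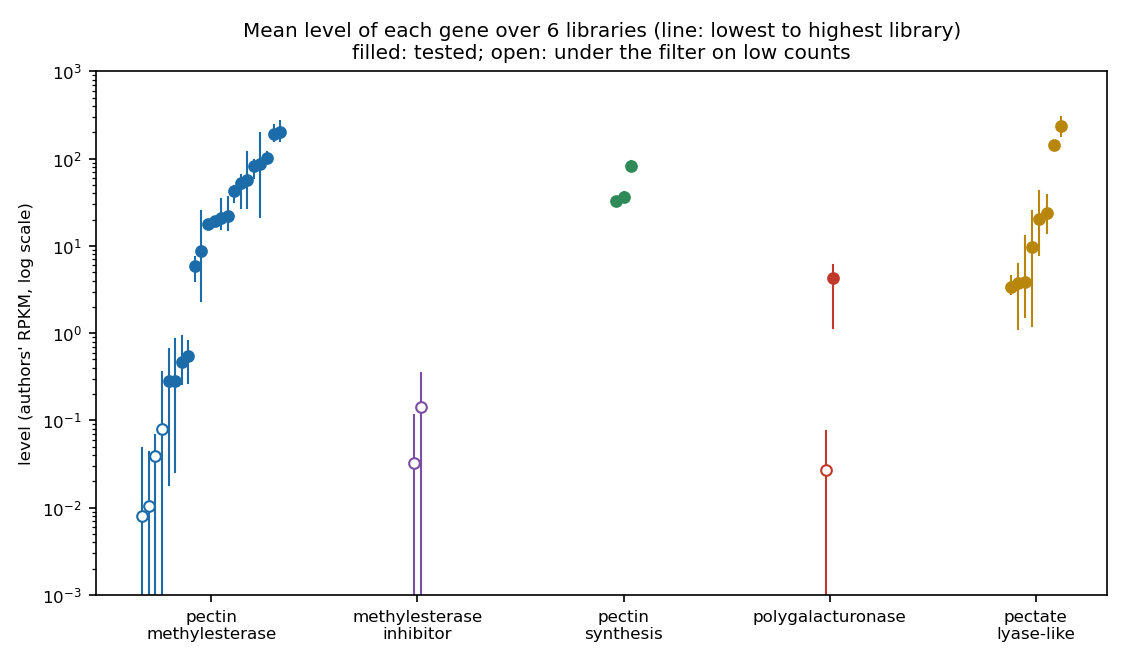
Mean level of each gene over the 6 libraries, as the authors' RPKM on a log axis, by class, with a line from the lowest to the highest library. Filled points are the 30 genes tested, open points were under the filter on low counts, lines that reach the foot of the plot include a library at 0, and 2 polygalacturonases without reads are not drawn. The methylesterases spread from 0.0081 to 204 RPKM, while the 3 synthesis genes lie close together.

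The comparison asks which of these genes differed between Dex and mock libraries of this line 3 h after treatment. Of the 39 genes, 30 had enough reads to be tested, and 4 fell and none rose in the quasi-likelihood test of edgeR at an adjusted p under 0.05. Among all 19347 genes tested, 2.07% fell and 4.63% rose. The genes that fell were the pectin methylesterases *PME17* (AT2G45220), *PME25* (AT3G10720) and AT5G04970 and the pectate lyase-like gene AT1G67750. At an unadjusted p under 0.05, 11 were lower and 2 higher (1969 and 2408 of all 19347 genes). DESeq2 called 5 lower and 2 higher (948 and 1399 of all genes) and edgeR's exact test 6 lower and 2 higher (851 and 1332). Limma-voom called 3 lower and none higher (321 and 876). The median log2 fold change of the 30 tested genes was -0.22, beside -0.01 over all genes tested. Because RNA came from whole internodes, fewer cells of a type and less RNA per cell cannot be told apart. *PME17*, *PME25* and AT1G67750 are on the study's own list of changed genes, so their direction is no independent evidence. By the paper's account, that list holds genes altered both in these libraries and in another line that expresses the auxin signalling repressor *bdl*.

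**Figure D2:**
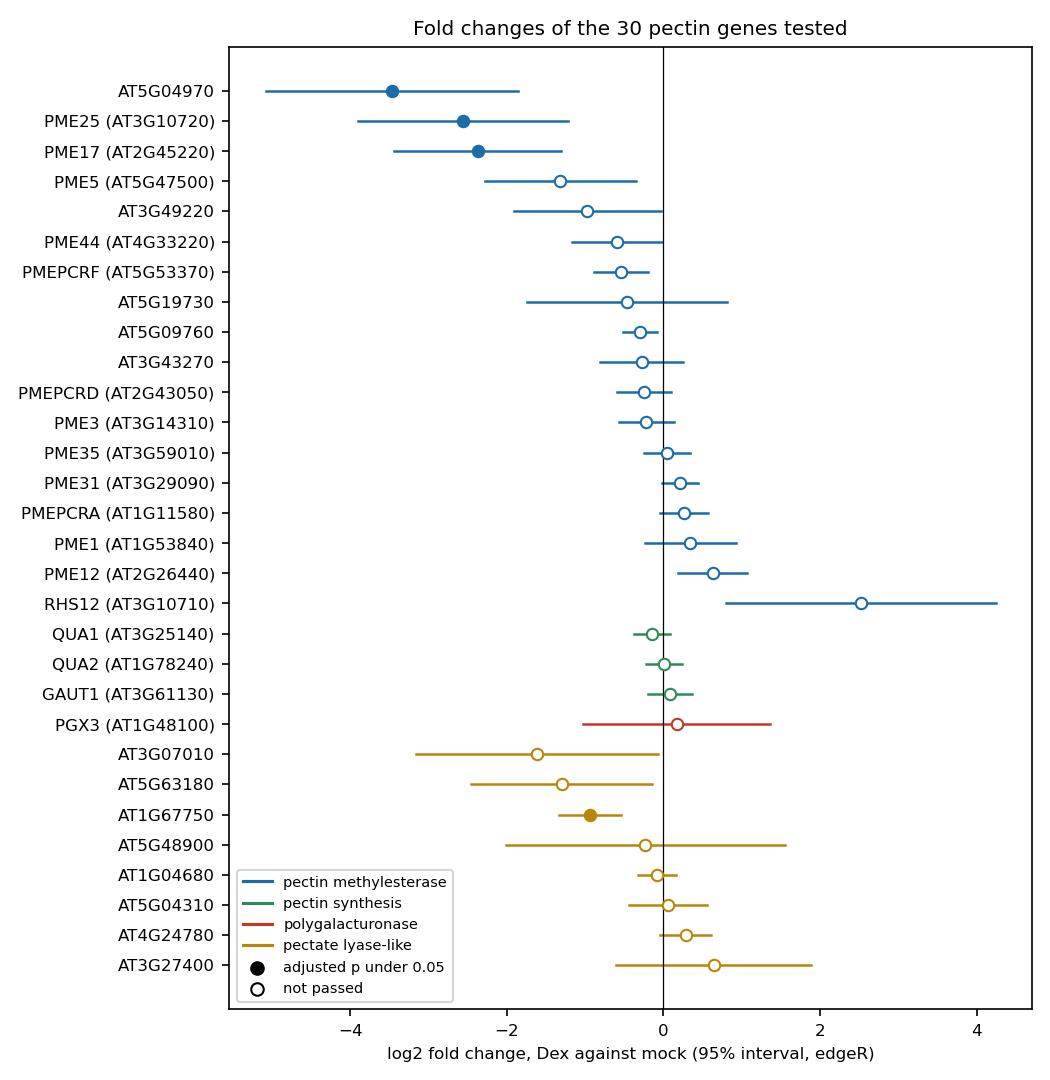
Log2 fold change between Dex and mock libraries for each of the 30 genes tested, with its 95% interval from edgeR, grouped and coloured by class. Filled points passed at an adjusted p under 0.05. The 4 filled points, at -3.47, -2.56, -2.37 and -0.94, all lie below 0, and the synthesis genes lie close to 0.

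*PME17* encodes a methylesterase with an inhibitor-like region ahead of the enzyme that is known for its induction by fungal pathogens and its processing by the subtilase SBT3.5 in roots. It lies on the minus strand of chr2:18644061-18646606 (TAIR10.1). Its level was 367, 85.2 and 331 CPM in mock replicates 1 to 3 and 37.1, 52.4 and 61.5 CPM in Dex replicates 1 to 3. All Dex libraries were below all mock libraries, but mock replicate 2 lay much nearer to the Dex libraries than to the other mock libraries. The mean fell from 261 ± 153 CPM to 50.3 ± 12.3 CPM (SD, n = 3 each), which is 0.193-fold (95% interval 0.0925 to 0.403; edgeR, adjusted p = 0.021).

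*PME25* showed the same arrangement of libraries at a lower level. It encodes a methylesterase of the same type and lies on the minus strand of chr3:3354406-3357754. It stood at 35.9, 6.85 and 53.7 CPM in the mock libraries and at 5.87, 4.95 and 5.54 CPM in the Dex libraries. The Dex libraries were close together and all below the mock libraries, the lowest of which, replicate 2, exceeded the highest Dex library by only about 1 CPM. The fold was 0.170 (95% interval 0.0672 to 0.430; edgeR, adjusted p = 0.037).

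The calls of *PME17* and *PME25* depended on which libraries entered the fit. Of the 6 fits that leave out a library, only the one without mock replicate 2 called them (edgeR, adjusted p = 2.7e-05 and 1.5e-05), and the others gave adjusted p up to 0.105 and 0.143. Limma-voom kept the call of *PME17* (adjusted p = 0.034) and lost that of *PME25* (adjusted p = 0.198). The 5 photosynthesis genes that mark green cortex moved in a like manner. Their summed level was 16057, 8547 and 14760 CPM in mock replicates 1 to 3 and 6769, 9411 and 9299 CPM in the Dex libraries. None of the 5 was at 0 in a library and none passed the edgeR test. At an unadjusted p under 0.05, 3 were lower, beside 1969 of 19347 genes tested. DESeq2 called *CAB1* (adjusted p = 0.0099) and *CAB3* (adjusted p = 0.032) lower, beside 948 of all genes. All 5 were called lower in the fit without mock replicate 2, beside 7.96% of all genes in that fit. The part of the green cortex genes in the fall of *PME17* and *PME25* was not tested.

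AT1G67750 encodes a pectate lyase family protein, an enzyme type that cleaves demethylated homogalacturonan, and lies on the plus strand of chr1:25401514-25403595. Its level was 48.0, 43.8 and 64.2 CPM in the mock libraries and 22.0, 27.9 and 31.5 CPM in the Dex libraries. Here mock replicate 2 sat with the other mock libraries, and the groups did not overlap. The mean fell from 52.0 ± 10.8 CPM to 27.1 ± 4.77 CPM (SD, n = 3 each), 0.522-fold (95% interval 0.396 to 0.689; edgeR, adjusted p = 0.018). The call held in 4 of the 6 fits that leave out a library and was lost without Dex replicate 1 (adjusted p = 0.076) and without Dex replicate 2 (adjusted p = 0.077).

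AT5G04970, a methylesterase gene on the minus strand of chr5:1464079-1467161, was scarce. It had 14, 32 and 32 reads in the mock libraries and 1, 1 and 6 reads in the Dex libraries, which correspond to 0.632, 1.25 and 1.38 CPM and to 0.042, 0.037 and 0.189 CPM. The groups were well apart, with mock replicate 2 on the side of mock replicate 3. The fold was 0.0905 (95% interval 0.0297 to 0.276; edgeR, adjusted p = 0.024), based on 78 reads in all mock and 8 reads in all Dex libraries. The call was lost without mock replicate 3 (adjusted p = 0.075), without Dex replicate 1 (0.107) and without Dex replicate 2 (0.107).

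**Figure D3:**
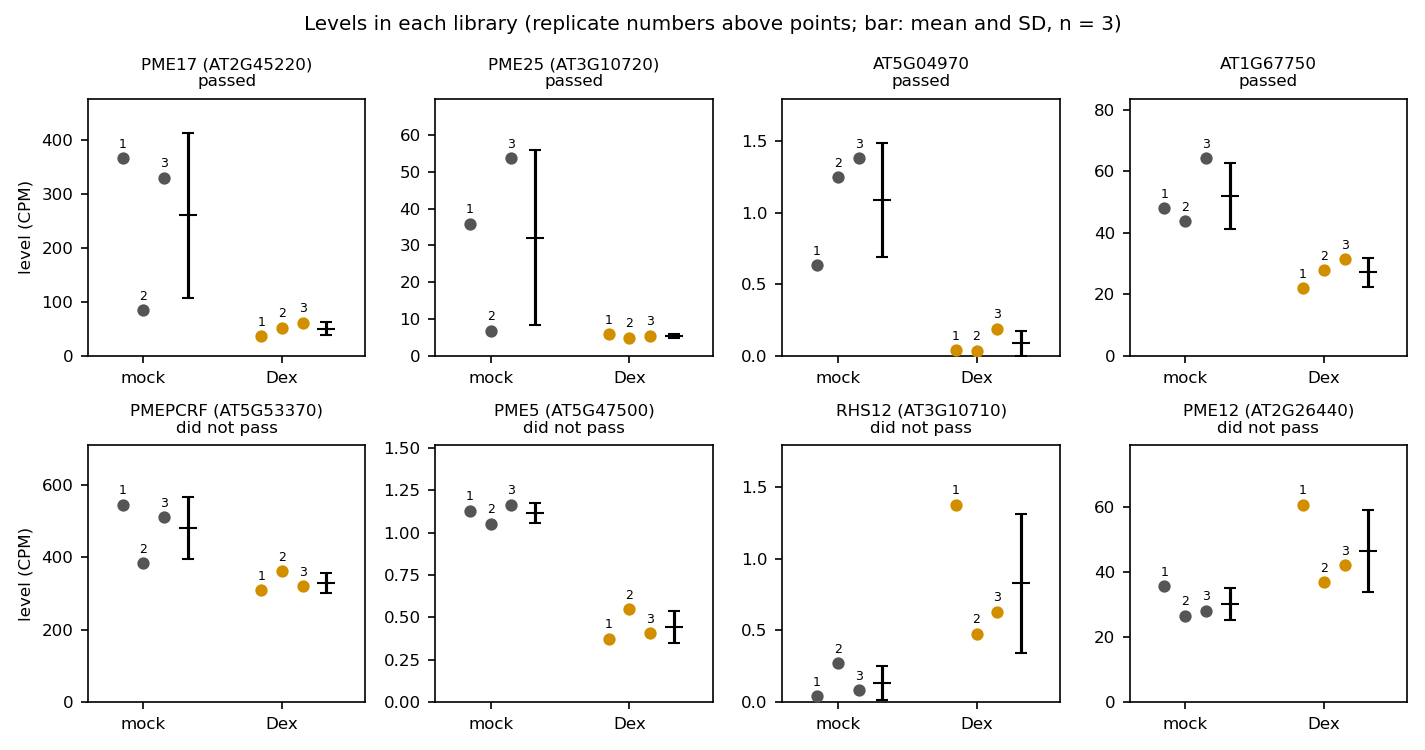
Level in CPM of 8 methylesterase and pectate lyase-like genes in each mock (grey) and Dex (yellow) library, with the replicate number above each point and the mean with SD (n = 3) as a bar. The upper row holds the 4 genes that fell, the lower row 4 that did not pass the test. Mock replicate 2 lies near the Dex libraries for *PME17* (85.2 CPM) and *PME25* (6.85 CPM) but not for AT1G67750 (43.8 CPM).

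Auxin response factors bind DNA motifs with the core TGTC, of which TGTCTC and TGTCGG are the best known. Both were searched on both strands of the 250 bases before each annotated gene start (RefSeq annotation of TAIR10.1), together with TATAAA, the letters of a TATA box, which can overlap its own reverse complement. TGTCTC was found before 6 of 39 genes (15.4%) and before 11.0% of 27443 protein-coding genes, and TGTCGG before 2 of 39 (5.13%) and before 4.16%. TATAAA was found before 20 of 39 (51.3%) and before 47.4%. The windows of the 4 genes that fell are shown first because they held neither auxin motif, followed by those of *PME5* and *RHS12*, which held 1 each. Other hexamers with the core TGTC were neither searched nor marked, and bases further upstream were not read. Among these hexamers is CAGACA on the other strand, which the study found bound by ARF5 upstream of *WOX4*. Its reverse complement, TGTCTG, occurs unmarked in the window of *PME25* printed below, and its share over all genes was not counted. A window that held neither motif may thus still hold a binding site. Sequences run 5′ to 3′ toward the gene, and capitals mark matches to the 3 motifs on either strand.
PME17 (AT2G45220, chr2:18646607-18646856, minus strand): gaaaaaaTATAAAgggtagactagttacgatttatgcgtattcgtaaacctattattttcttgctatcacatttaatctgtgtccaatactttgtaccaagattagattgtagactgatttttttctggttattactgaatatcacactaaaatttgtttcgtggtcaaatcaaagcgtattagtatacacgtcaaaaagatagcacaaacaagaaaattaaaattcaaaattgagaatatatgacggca
PME25 (AT3G10720, chr3:3357755-3358004, minus strand): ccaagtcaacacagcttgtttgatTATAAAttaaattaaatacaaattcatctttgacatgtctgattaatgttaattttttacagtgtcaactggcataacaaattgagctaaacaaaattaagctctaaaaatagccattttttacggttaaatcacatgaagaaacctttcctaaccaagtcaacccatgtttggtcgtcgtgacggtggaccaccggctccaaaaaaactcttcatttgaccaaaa
AT5G04970 (chr5:1467162-1467411, minus strand): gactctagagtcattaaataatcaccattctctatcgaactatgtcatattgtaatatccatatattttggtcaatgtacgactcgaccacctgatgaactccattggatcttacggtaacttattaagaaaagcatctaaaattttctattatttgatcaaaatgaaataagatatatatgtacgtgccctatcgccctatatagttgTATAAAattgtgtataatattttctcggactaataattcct
AT1G67750 (chr1:25401264-25401513, plus strand): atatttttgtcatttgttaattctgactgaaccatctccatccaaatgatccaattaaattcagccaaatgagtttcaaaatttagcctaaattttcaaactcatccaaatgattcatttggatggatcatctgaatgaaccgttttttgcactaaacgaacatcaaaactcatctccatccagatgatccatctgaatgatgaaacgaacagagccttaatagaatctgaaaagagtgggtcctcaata
PME5 (AT5G47500, chr5:19272893-19273142, minus strand): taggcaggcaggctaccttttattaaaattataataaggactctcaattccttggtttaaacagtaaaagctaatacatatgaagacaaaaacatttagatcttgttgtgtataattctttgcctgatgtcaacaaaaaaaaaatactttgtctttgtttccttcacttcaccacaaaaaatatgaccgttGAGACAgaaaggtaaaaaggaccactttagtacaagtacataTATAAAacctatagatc
RHS12 (AT3G10710, chr3:3351827-3352076, plus strand): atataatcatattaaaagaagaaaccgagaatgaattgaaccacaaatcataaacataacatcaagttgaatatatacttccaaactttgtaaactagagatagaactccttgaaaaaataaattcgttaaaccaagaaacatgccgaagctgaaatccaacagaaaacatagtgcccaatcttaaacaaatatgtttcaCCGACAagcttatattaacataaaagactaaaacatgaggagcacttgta
*PME5* held TGTCTC on the reverse strand, its first base 59 bases before the gene start, and *RHS12* held TGTCGG on the reverse strand, 50 bases before it. TATAAA began 243 bases before the start of *PME17*, 226 before that of *PME25*, 41 before that of AT5G04970 and 17 before that of *PME5*.

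*PME5*, which is known from shoot meristems where its product softens the wall, did not pass the test although its groups were far apart. It stood at 1.13, 1.05 and 1.16 CPM in the mock libraries and at 0.375, 0.550 and 0.409 CPM in the Dex libraries, based on 79 and 37 reads. The highest Dex library was near the middle between 0 and the mock level. The fold was 0.402 (95% interval 0.206 to 0.783; edgeR, adjusted p = 0.106), and only edgeR's exact test called it (adjusted p = 0.031).

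*RHS12*, a methylesterase gene named for its root hair expression, had the largest positive log2 fold change of the 30 genes. It had 1, 7 and 2 reads in the mock libraries and 33, 13 and 20 reads in the Dex libraries, or 0.045, 0.273 and 0.086 CPM against 1.37, 0.477 and 0.629 CPM. All Dex libraries were above all mock libraries. The fold was 5.75 (95% interval 1.75 to 18.9) and did not pass in edgeR (adjusted p = 0.086), but passed in DESeq2 (adjusted p = 0.039), in the exact test (adjusted p = 0.0086) and without mock replicate 2 (edgeR, adjusted p = 0.029). Of 5 root hair markers, *EXPA7* and *RHS19* had no reads in any library, and the sum of all 5 was 0 to 0.259 CPM in mock and 0.283 to 0.583 CPM in Dex libraries. Whether root hair-type transcripts contributed was not tested.

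*RHS12* and *PME25* are neighbours that end toward each other, with only 30 bases between their annotated ends (chr3:3354376-3354405). These bases are shown, on the plus strand, because the count tables do not state whether strand was used.
Between RHS12 and PME25: tatgattcaaatgacatactcgtagttgtg
Their reads moved in opposite directions, *RHS12* being lower in the mock libraries, where its neighbour was higher. AT5G04970 likewise ends 12 bases from the end of AT5G04960, a methylesterase gene with 0 reads in the mock libraries and 0, 0 and 3 in the Dex libraries.

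The 2 most abundant methylesterases did not pass in edgeR. *PMEPCRF*, the most abundant, stood at 546, 383 and 511 CPM in the mock libraries and at 309, 361 and 320 CPM in the Dex libraries. The groups did not overlap, with mock replicate 2 closest to the Dex libraries. Its fold was 0.688 (95% interval 0.543 to 0.872; edgeR, adjusted p = 0.071), and it passed in DESeq2 (adjusted p = 0.0063), in the exact test (adjusted p = 0.018) and without mock replicate 2 (edgeR, adjusted p = 0.0051). *PME3*, a methylesterase that a cyst nematode protein binds, stood at 525, 411 and 383 CPM in mock and 432, 360 and 343 CPM in Dex libraries. These groups overlapped and the fold was 0.860 (95% interval 0.677 to 1.09; edgeR, adjusted p = 0.44).

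Of the 18 methylesterases tested, 12 had a log2 fold change below 0, with a median of -0.29, while 51.5% of all genes tested were below 0. The other 11 methylesterases tested had folds of 0.510 to 1.54 and none passed in edgeR. AT3G49220 (fold 0.510, adjusted p = 0.207) and *PME44* (fold 0.662, adjusted p = 0.204) were high in mock replicates 1 and 3 alone and were called lower without mock replicate 2 (edgeR, adjusted p = 0.00084 and 0.0058). *PME12* (AT2G26440) was at 26.7 to 35.7 CPM in mock and 36.9 to 60.8 CPM in Dex libraries, without overlap, and did not pass in edgeR (fold 1.54, adjusted p = 0.092) but did in DESeq2 (adjusted p = 0.031). *PME35* (AT3G59010), whose product is known to strengthen the fibres of the inflorescence stem, had a fold of 1.03 (95% interval 0.840 to 1.27; edgeR, adjusted p = 0.88). Across the 30 tested genes of all classes, 7 had all Dex values below all mock values, beside 12.1% of all genes tested, and 3 had all Dex values above, beside 15.2%.

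Summed over the 22 methylesterases, the level was 2311, 1579 and 2222 CPM in the mock libraries and 1532, 1602 and 1518 CPM in the Dex libraries. Without *PME17* the sums were 1944, 1494 and 1892 CPM against 1495, 1550 and 1457 CPM. In both sums mock replicate 2 lay among the Dex libraries, so the groups overlapped. Of the remaining 4 methylesterases, which were too scarce to be tested, *PME41* (AT4G02330), known from the chilling response, had 4, 0 and 16 reads in mock and 1, 0 and 0 reads in Dex libraries, and *PME2*, AT2G47550 and AT5G04960 had at most 11 reads each over all libraries.

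Neither inhibitor could be tested. *PMEI1*, known from pollen, had no reads in the mock libraries and 2, 0 and 2 reads in the Dex libraries. *PMEI2*, whose product binds a methylesterase of the pollen tube, had 2, 0 and 4 reads in mock and 0, 5 and 0 reads in Dex libraries. Both were thus at or near the limit set by a count of 0, and no difference was detectable at this depth.

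The synthesis genes were even across all 6 libraries. *GAUT1*, the galacturonosyltransferase that extends homogalacturonan, stood at 90.8, 84.7 and 100.03 CPM in mock and 82.2, 102 and 108 CPM in Dex libraries, with a fold of 1.06 (95% interval 0.872 to 1.29). *QUA1*, a related glycosyltransferase required for cell adhesion, stood at 165, 155 and 182 CPM in mock and 146, 150 and 158 CPM in Dex libraries, with a fold of 0.906 (95% interval 0.772 to 1.06). *QUA2* (AT1G78240), a putative pectin methyltransferase, stood at 100.3, 90.3 and 87.8 CPM in mock and 89.7, 101 and 88.7 CPM in Dex libraries, with a fold of 1.00 (95% interval 0.857 to 1.17). Each pair of groups overlapped, and none of the 3 had an unadjusted p under 0.05 in edgeR or passed in edgeR, DESeq2, the exact test or limma-voom. At the level of the whole internode, the 3 intervals lie within a change of 1.5-fold in either direction. They are not adjusted for the number of genes. A change confined to the cells where the *PXY* promoter is active cannot be judged from them.

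Of the polygalacturonases, which hydrolyse the demethylated backbone, only *PGX3* (AT1G48100) was tested. It stood at 10.8, 2.06 and 9.52 CPM in mock and 4.71, 10.9 and 9.53 CPM in Dex libraries. The groups overlapped, mock replicate 2 was the lowest of all, and the fold of 1.13 had a wide interval (95% interval 0.491 to 2.58; edgeR, adjusted p = 0.89). *PGX1* (AT3G26610), known from expanding cells, had 1, 0 and 0 reads in mock and 3, 2 and 1 reads in Dex libraries. *ADPG1* and *ADPG2*, which act in organ abscission and fruit opening, had 0 reads in all 6 libraries, which allows at most 0.0935 to 0.131 CPM in a library.

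Of the 8 pectate lyase-like genes, all tested, AT1G67750 was the only one to pass in edgeR. DESeq2, the exact test and limma-voom also called this gene alone. At an unadjusted p under 0.05, 3 of the 8 were lower, beside 1969 of 19347 genes tested. The abundant AT4G24780 stood at 317, 397 and 376 CPM in mock and 383, 437 and 510 CPM in Dex libraries, which overlapped (fold 1.22, 95% interval 0.974 to 1.53; edgeR, adjusted p = 0.27). AT1G04680 stood at 269, 299 and 294 CPM in mock and 256, 263 and 293 CPM in Dex libraries and was flat (fold 0.942, 95% interval 0.796 to 1.12; edgeR, adjusted p = 0.68). The summed level of this class was 701 to 887 CPM over all 6 libraries.

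AT5G63180 was at 54.7, 11.3 and 63.5 CPM in mock and 13.5, 17.2 and 21.7 CPM in Dex libraries. AT3G07010 was at 4.88, 2.53 and 22.3 CPM in mock and 2.998, 2.64 and 4.03 CPM in Dex libraries. In both, mock replicate 2 was lower than every Dex library, so the groups overlapped. Their folds were 0.406 (edgeR, adjusted p = 0.17) and 0.327 (edgeR, adjusted p = 0.20), and without mock replicate 2 they were 0.297 (adjusted p = 0.00029) and 0.238 (adjusted p = 0.019). Of the other members of this class, AT3G27400 had the opposite pattern, at 1.67, 8.88 and 2.20 CPM in mock and 5.12 to 7.55 CPM in Dex libraries, and AT5G48900 ranged from 1.87 to 39.3 CPM within the mock group alone. Without mock replicate 2, 9 of the 30 genes fell and 2 rose (edgeR), beside 7.96% and 9.79% of 19587 genes.

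**Figure D4:**
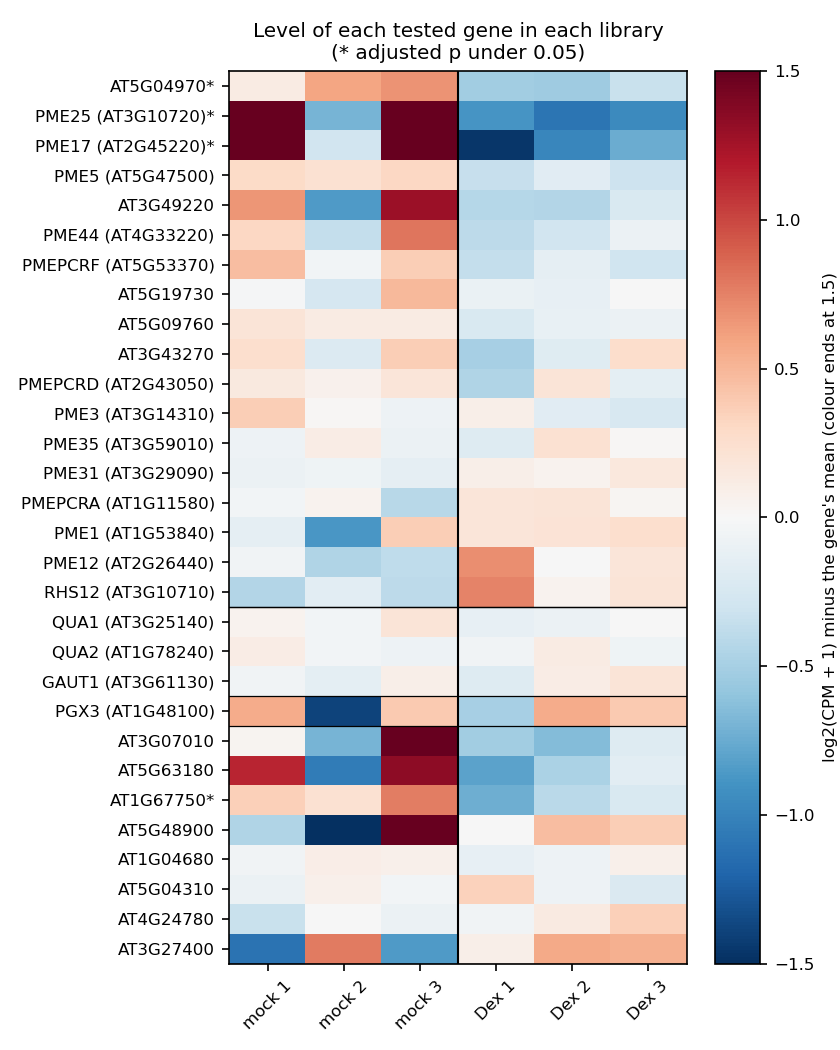
Level of each of the 30 genes tested in each library, as log2(CPM + 1) minus the gene's mean over the 6 libraries, grouped by class; colours end at 1.5 and an asterisk marks an adjusted p under 0.05. Mock replicate 2 has the colour of the Dex libraries for *PME25*, AT3G49220, AT5G63180 and AT3G07010, whereas AT1G67750, AT5G04970 and *PME5* are red in all 3 mock libraries and blue in all 3 Dex libraries.

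The remainder of the pectin pathway was described by 63 further genes in 9 lists, of which 54 were tested. Of these, 2 fell and 1 rose in edgeR, beside 2.07% and 4.63% of all genes tested. All 3 were pectin acetylesterases, enzymes that remove acetyl groups from the backbone, of which 11 of 12 were tested. *PAE8* (AT4G19420) stood at 184, 155 and 229 CPM in mock and 111, 89.1 and 73.7 CPM in Dex libraries and fell to 0.482-fold (edgeR, adjusted p = 0.013). *PAE9* (AT5G23870) stood at 43.4, 40.1 and 58.3 CPM in mock and 27.9, 30.8 and 25.7 CPM in Dex libraries and fell to 0.595-fold (edgeR, adjusted p = 0.024). AT3G05910 stood at 55.1, 49.5 and 57.02 CPM in mock and 68.8, 69.7 and 75.5 CPM in Dex libraries and rose 1.32-fold (edgeR, adjusted p = 0.042). In all 3 the groups did not overlap and mock replicate 2 sat with the mock libraries, and all 3 were also called by DESeq2, the exact test and limma-voom. Among the 54 genes, 2 had all Dex values below all mock values and 9 had them above, beside 12.1% and 15.2% of all genes tested. The call of *PAE8* was lost without mock replicate 1 and without Dex replicate 2 or 3 (adjusted p up to 0.070), that of *PAE9* without mock replicate 1 or any Dex library (up to 0.107), and that of AT3G05910 without any library but mock replicate 2 (up to 0.166).

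None of the other 43 tested genes passed in edgeR or limma-voom. At an unadjusted p under 0.05, 1 was lower and 7 were higher, beside 1969 and 2408 of 19347 genes tested. DESeq2 and the exact test called *GALS1*, a galactan synthase, higher. The most abundant were *GAUT9* (47.9 RPKM) among 13 further homogalacturonan synthesis genes with a median log2 fold change of -0.01, AT5G15740 (36.5 RPKM) among 7 rhamnogalacturonan synthesis genes with a median of 0.27, and *GAE6* (236 RPKM) among 9 genes of nucleotide sugar supply with a median of -0.03. AT5G62360 (140 RPKM) led 5 further methylesterase inhibitors with a median of 0.30. The others were *PMR6* (29.4 RPKM) of 2 further degradation genes, *PGIP2* (70.1 RPKM) of 2 polygalacturonase inhibitors, *ARA12* (89.5 RPKM) of 3 subtilases that can process methylesterases, and *WAK1* (59.1 RPKM) of 2 wall-associated receptors that bind pectin.

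**Figure D5:**
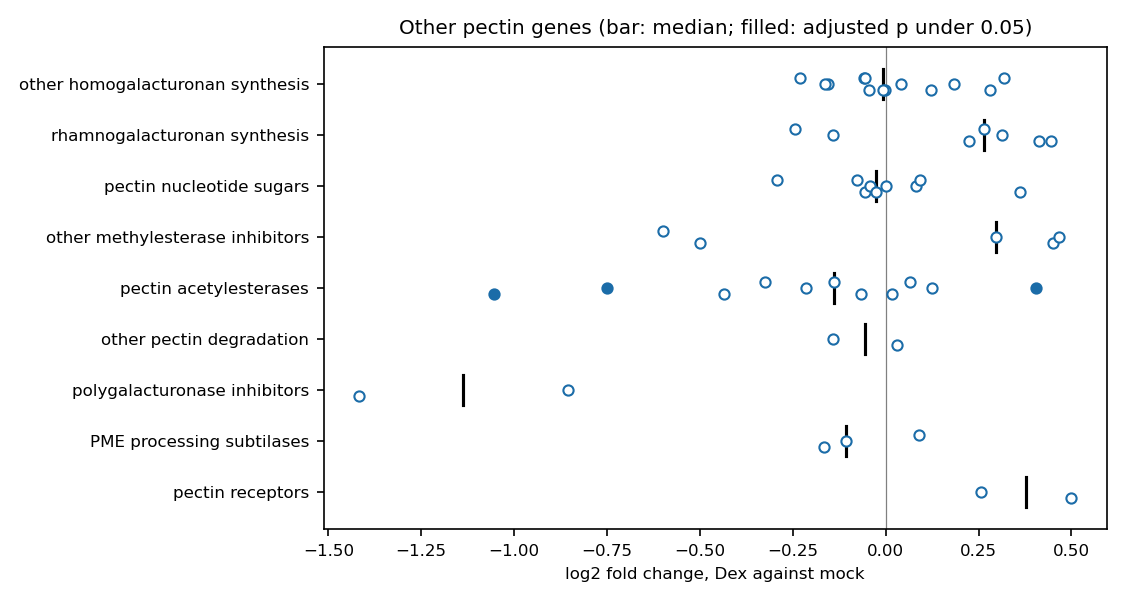
Log2 fold change between Dex and mock libraries of the 54 tested genes in 9 further pectin lists, with the median of each list as a bar. Filled points passed at an adjusted p under 0.05. The 3 filled points, at -1.05, -0.75 and 0.40, are all pectin acetylesterases.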

How the data were processed

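RNA from stems (second internode) of plants with the *pPXY:GR-ARF5∆III/IV* transgene was profiled in 3 mock and 3 Dex libraries, grouped by their sample labels. The authors sequenced strand-marked libraries as single reads and aligned them to TAIR10 in CLC Genomics Workbench. Per gene, the deposited tables give read counts for the gene as a whole, for its exons and for reads with a unique position. RPKM values were computed by the authors from exon reads, exon length and library total. Whether counting used the strand, and the annotation release, are not given in the sources used here. Of 33323 entries, 5 that lacked a name (0.0803% to 0.0998% of reads) were left out, and 96.8% to 97.1% of gene reads were unique. Of the 39 genes, only *PMEPCRA* (AT1G11580) had reads that were not all unique (95.8% unique). The genes AT4G33220, AT5G53370, AT2G47550, AT3G25140, AT1G48100 and AT3G07010 overlap a gene on the other strand, so their reads may include those of the overlapping gene.

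Whole-gene counts were compared by quasi-likelihood testing in edgeR 4.0.16 (R 4.3.3), with TMM scaling (factors 0.969 to 1.04) and filterByExpr (minimum count 10, minimum total 15). P-values were adjusted by Benjamini-Hochberg over 19347 genes, with a threshold of 0.05. Intervals are 95% intervals of the model, and the limit for a count of 0 is 3 counts. Levels are CPM with TMM, as mean ± SD of 3 libraries. Genes are named with the values of every library where they passed, had an absolute log2 fold change of at least 1, were among the 2 most abundant of a class of at least 4 genes, or belonged to the synthesis or inhibitor class. Of the further pectin lists, genes that passed are named, or else the most abundant gene of the list, and other genes were named after their values were seen. The genes, lists and tests were chosen with earlier results of these data known, and the motif TATAAA was added after the values were seen. Upstream bases and coordinates were read from TAIR10.1 with its RefSeq annotation, while the deposited tables hold no coordinates. The alternatives were RLE factors, library totals, no filter, a filter of 1 CPM in 3 libraries, DESeq2 1.42.0, limma-voom (limma 3.58.1), edgeR's exact test, unique reads, exon reads, an unadjusted p under 0.05, a replicate block and leaving out each library. Marker lists were cambium, xylem, phloem, green cortex, epidermis, root hair, pollen, and touch and wounding genes. Of these, 1 of 3 cambium genes (*ATHB8*) and 1 of 6 touch and wounding genes (*TCH4*, 3.76-fold, adjusted p = 0.0054) rose, no other marker passed in edgeR, and the pollen list was at 0.858 to 1.79 CPM in sum.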

Additional observations from a re-analysis of the deposited data

How the results depend on the processing

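The direction of the 4 genes that fell was the same under all alternatives run. Among all genes tested, 400 fell and 895 rose. The numbers of pectin genes that fell and rose were 4 and 0, and they were 5 and 2 with DESeq2 (948 and 1399 of all genes), 6 and 2 with edgeR's exact test (851 and 1332), 11 and 2 at an unadjusted p under 0.05 (1969 and 2408) and 3 and 0 with limma-voom (321 and 876). RLE factors, library totals, no filter, unique reads and exon reads gave 4 and 0, and a filter of 1 CPM gave 3 and 0, as AT5G04970 was no longer tested. Leaving out single libraries gave 0 to 9 pectin genes lower and 0 to 2 higher (70 to 1559 and 337 to 1918 of all genes), with the upper ends without mock replicate 2 and 0 pectin genes called without Dex replicate 1 or 2, where fewer libraries were compared.

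With a replicate block, 3 pectin genes fell and 1 rose (261 and 613 of all genes), as *PME25* was lost (adjusted p = 0.055) and *PME12* gained (adjusted p = 0.034). The block also ended the calls of *PAE9* (adjusted p = 0.055), AT3G05910 (0.075), AT1G14890 (0.054) and AT3G62110 (0.071), and kept those of *PAE8*, AT3G49330, AT1G80170 and AT4G33440. Same-numbered mock and Dex libraries correlated at -0.10, 0.00 and 0.21, and mock replicate 1 correlated better with Dex replicate 3 than with its own number, so the numbers were not taken as pairs.

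Reversals of sign touched only genes that did not pass, whose adjusted p stayed above 0.14, and the cause was not tested. *QUA2* (0.00) turned to -0.00298 with RLE factors and -0.0029 with DESeq2, and AT5G48900 (-0.23) to 0.79 with limma-voom and 0.54 with the block. When a library was left out, *PME35* ranged from -0.067 to 0.15, AT5G19730 from -0.80 to 0.17, *GAUT1* from -0.00085 to 0.19, *QUA2* from -0.056 to 0.056, *PGX3* from -0.28 to 0.52, AT5G48900 from -0.76 to 1.52 and AT5G04310 from -0.15 to 0.19 on the log2 scale. Groups of 3 libraries and low counts limit *PME5*, *RHS12* and AT5G04970, each with at most 116 reads in all.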

Other observations

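The reference annotation holds more genes of these protein families than the 39 described. Sets taken by annotated product name alone were looked at after the values were seen. Genes under another product name, such as *PME3*, *PMEPCRF* and AT1G67750, were left out, so the sets hold only part of the 39. The name of the first family covers methylesterases and their inhibitors. These were not told apart in its counts, AT1G14890 and AT3G49330 included. Of 107 genes annotated as plant invertase/pectin methylesterase inhibitor superfamily, 44 had no reads and 38 were tested, with a median log2 fold change of -0.30. Only 11 of the 39 genes described were among the 107. In edgeR, 5 fell and none rose, beside 2.07% and 4.63% of all genes tested. DESeq2 gave 6 and 2 (948 and 1399 of all genes), the exact test 7 and 2 (851 and 1332) and limma-voom 5 and 0 (321 and 876). At an unadjusted p under 0.05 there were 12 and 4 (1969 and 2408 of all genes). Besides *PME17*, *PME25* and AT5G04970, the genes that fell in edgeR were AT1G14890 and AT3G49330. AT1G14890 stood at 226, 111 and 130 CPM in mock and 78.8, 77.3 and 82.4 CPM in Dex libraries (0.511-fold, edgeR, adjusted p = 0.044). AT3G49330 stood at 27.9, 12.9 and 37.3 CPM in mock and 7.29, 4.47 and 4.15 CPM in Dex libraries (0.203-fold, edgeR, adjusted p = 0.010). The call of AT3G49330 was lost without Dex replicate 2 or 3 (edgeR, adjusted p up to 0.065) and that of AT1G14890 without mock replicate 3 or any Dex library (up to 0.156). AT3G49330 is also on the study's own list of genes altered both in these libraries and in the *bdl* line.

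Of 103 genes annotated as pectin lyase-like superfamily, which includes polygalacturonases, 39 were tested, with a median log2 fold change of -0.20. The 103 held 12 of the 39 genes described, with the methylesterases *PME5* and AT5G19730 but without AT1G67750. In edgeR, 1 fell and 2 rose, beside 2.07% and 4.63% of all genes tested. DESeq2 gave 1 and 2 (948 and 1399 of all genes), the exact test 3 and 2 (851 and 1332) and limma-voom 1 and 2 (321 and 876). At an unadjusted p under 0.05 there were 7 and 4 (1969 and 2408 of all genes). AT1G80170, at 208 RPKM far more abundant than any of the 4 polygalacturonases described, stood at 468, 417 and 345 CPM in mock and 267, 250 and 262 CPM in Dex libraries and fell to 0.634-fold (edgeR, adjusted p = 0.022). AT3G62110 rose 1.41-fold (edgeR, adjusted p = 0.032) and AT4G33440 rose 1.73-fold (edgeR, adjusted p = 0.018). In these 3 genes the groups did not overlap. Each call was lost without mock replicate 1 and without Dex replicate 2 or 3, and those of AT1G80170 and AT3G62110 also without Dex replicate 1 (edgeR, adjusted p up to 0.139).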
